A study of Mus musculus with 19 samples.

Results

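The genes described are the 10 BMP and TGFβ ligand genes Bmp2, Bmp3, Bmp4, Bmp5, Bmp6, Bmp7, Gdf10, Tgfb1, Tgfb2 and Tgfb3, chosen by name from the 35596 genes of the series. RNA was taken from the whole vomeronasal organ (VNO) of female mice at postnatal day 21 and sequenced as polyA+ libraries. In the AP-2εCre line, Cre is expressed from the locus of Tfap2e in vomeronasal sensory neurons (VSNs) of the basal kind while still immature, and in the OMPCre line from the locus of Omp in mature VSNs, apical and basal alike. Each line has 3 Smad4 conditional knockouts (cKO; Cre+/-, Smad4 flox/flox), 3 heterozygous controls (Cre+/-) and 3 controls with Smad4 flox/flox and no Cre. The labels call this last group wild type, and its genotype here is the one that the series' design text and the study's methods give. All cKO animals therefore carry 1 Cre allele and the floxed Smad4 alleles, whereas the heterozygous controls share the Cre allele alone and the flox controls share the floxed alleles alone. Every library holds RNA of the whole organ, in which Cre acts in neurons only, so fewer cells of a type and less RNA per cell cannot be told apart in these values. 1 further AP-2εCre library has a title of one genotype and a genotype label of another, and entered no comparison.

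BMPs and TGFβs are secreted dimers that bind pairs of type I and type II receptor kinases. BMP receptors phosphorylate SMAD1, SMAD5 and SMAD9, TGFβ receptors phosphorylate SMAD2 and SMAD3, and both sets enter the nucleus with SMAD4, which the cKO neurons lose. Many ligands are made by stroma, vessels and bone and act on neighbouring cells, and some of their genes are themselves regulated by the pathway. The comparison of cKO with control VNOs thus asks whether ligand expression in the organ differs when neurons lose the shared SMAD.

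For 6 of the 10 members RefSeq promoter sequence was at hand (GRCm38.p6), for Bmp4, Bmp5, Bmp6, Gdf10, Tgfb1 and Tgfb2. The 250 bases before the start are shown for Bmp5 and Gdf10, whose expression varied together between libraries of a group (r = 0.69 over 18 libraries), and for Tgfb2, the 1 member whose cKO and control libraries did not overlap in the OMPCre line. They lie at chr9:75775115-75775364 on the plus strand, chr14:33923337-33923586 on the plus strand and chr1:186705990-186706239 on the minus strand, and capitals mark CAGAC or its reverse complement GTCTG, the letters of the SMAD box bound by SMAD3 and SMAD4.
Bmp5: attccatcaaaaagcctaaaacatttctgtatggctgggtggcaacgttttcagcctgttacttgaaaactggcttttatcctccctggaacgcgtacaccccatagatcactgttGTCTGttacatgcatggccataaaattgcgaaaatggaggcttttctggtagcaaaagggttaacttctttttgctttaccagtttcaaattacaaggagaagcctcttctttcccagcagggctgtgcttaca
Gdf10: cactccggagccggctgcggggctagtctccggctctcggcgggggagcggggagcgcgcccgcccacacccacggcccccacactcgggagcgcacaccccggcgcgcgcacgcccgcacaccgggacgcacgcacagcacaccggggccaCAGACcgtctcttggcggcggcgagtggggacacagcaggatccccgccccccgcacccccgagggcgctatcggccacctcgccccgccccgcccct
Tgfb2: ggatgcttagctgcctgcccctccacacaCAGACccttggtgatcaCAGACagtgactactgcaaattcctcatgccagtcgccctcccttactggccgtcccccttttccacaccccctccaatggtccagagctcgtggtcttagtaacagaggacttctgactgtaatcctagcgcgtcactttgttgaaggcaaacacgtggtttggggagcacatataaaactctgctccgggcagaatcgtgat
The SMAD box letters occur once before Bmp5 and once before Gdf10, and 2 times before Tgfb2. With Bmp6, 4 of the 6 members hold them, and Bmp4 and Tgfb1 do not. Of 32851 promoter stretches of the same 250 bases, 42.2% hold them on either strand. The GC-rich SMAD letters GGCGCC, which do not overlap the first motif, are in 9.59% of the stretches and in none of the 6 members'. With the 50 bases after the start included, Gdf10 holds them once, as do 11.9% of the longer stretches at least once. GC content was 42.8% before Bmp5, 78.8% before Gdf10 and 53.6% before Tgfb2. These matches describe the letters of the windows and say nothing of binding.

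Estimated counts per library summed to between 43385516 and 134042284, with the highest total in an AP-2εCre cKO library. Smad4 had 33.8, 66.1 and 66.5 CPM in AP-2εCre cKO VNOs and 39.6 to 81.0 CPM in the 6 controls of that line (edgeR log2 fold change -0.09 ± 0.30 SE, adjusted p = 0.955). In the OMPCre line it had 54.4, 61.9 and 62.5 CPM against 64.8 to 83.9 CPM, all 3 cKO libraries below all 6 controls (-0.35 ± 0.09, adjusted p = 0.909). In the AP-2εCre line the log2 difference of Smad4 was -0.49 over letter-named and 0.69 over line-named libraries (2 forms of library name, a letter or the name of the line). CPM are counts per 1000000, normalized by edgeR's TMM method. Reads from cells without Cre, and from parts of Smad4 outside the deleted exons, enter these values, so Smad4 is a weak check of the labels. Tfap2e had 5.44 to 8.88 CPM in the AP-2εCre heterozygotes, 10.0 to 12.5 CPM in the cKO libraries, which carry the same Cre allele, and 15.4 ± 1.30 CPM in their flox controls (SD, n = 3), and Omp 237 ± 11.7 CPM in the OMPCre heterozygotes, 259 ± 25.4 CPM in cKO VNOs of that line and 397 ± 85.1 CPM in their flox controls. For both genes all 3 heterozygotes lay below all 3 flox controls, and neither passed the edgeR test (adjusted p = 0.303 and 0.572). The AP-2εCre cKO libraries lay above all 3 heterozygotes and below all 3 flox controls for Tfap2e. The labels name VSNs as cell type, but summed markers of vomeronasal glands reached 48601 to 168464 CPM and those of fibroblasts 16411 to 40400 CPM, beside 447 to 864 CPM for mature VSNs.

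All 10 ligands were detected in every library, and Bmp6 had the highest level per transcript length. Levels of different genes are compared in TPM, which corrects for transcript length, over the 12 control libraries of both lines. Bmp6 (chromosome 13, 38345107 to 38500302, plus strand), a ligand of the BMP5/6/7 subfamily, had 36.6 ± 6.96 TPM (SD, n = 12). Tgfb1 (chromosome 7, 25687002 to 25705077, plus), which is secreted bound to a latency peptide, had 29.9 ± 5.15 TPM, below Bmp6 in 9 of 12 libraries. Bmp7 (chromosome 2, 172868012 to 172940321, minus), at 19.3 ± 5.26 TPM, and Gdf10 (chromosome 14, 33923587 to 33937983, plus), a relative of Bmp3, at 19.0 ± 5.04 TPM, did not differ beyond their spread, with Bmp7 above Gdf10 in 7 of 12 libraries. Tgfb3 (chromosome 12, 86056745 to 86079041, minus) had 13.9 ± 2.02 TPM, and was above Tgfb2 (chromosome 1, 186622792 to 186705989, minus) at 10.2 ± 2.02 TPM in 12 of 12 libraries. Tgfb2 was in turn above Bmp3 (chromosome 5, 98854415 to 98884396, plus), a ligand known to oppose other BMPs, at 6.87 ± 1.93 TPM in 12 of 12. Bmp5 (chromosome 9, 75775364 to 75900310, plus) had 4.49 ± 2.42 TPM and Bmp2 (chromosome 2, 133552159 to 133562885, plus) 2.67 ± 0.53 TPM, Bmp5 being the higher in 11 of 12. The ranges of every pair of neighbours in this order overlapped.

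Bmp4 (chromosome 14, 46383520 to 46390669, minus), the closest relative of Bmp2, had no firm place in this order. Its TPM over all transcripts was 18.8 ± 8.75 (SD, n = 12), with single libraries from 4.48 to 32.7. A retained-intron transcript of 258 bases held 3.69% of the Bmp4 reads on average over the 18 libraries, but 60.3% of the Bmp4 TPM (0% to 86.2% per library). With protein-coding transcripts of at least 1000 bases alone, a choice made after this was seen, Bmp4 had 4.95 ± 1.11 TPM and moved from the fifth to rank 8. Transcripts under 1000 bases also carried 31.0% of the TPM of Tgfb1, 23.2% of that of Bmp6, 22.4% of that of Bmp5 and 12.1% of that of Tgfb2. On the longer transcripts Bmp6 was still first, at 28.1 ± 5.59 TPM, above Tgfb1 (19.9 ± 2.93 TPM) in 12 of 12 libraries. Most Bmp4 reads fell on 2 protein-coding transcripts, one of 1633 bases with 49.5% of all Bmp4 reads (25.2% to 79.5% per library) and one of 2064 bases with 46.4% (12.0% to 68.4%). Bmp2, Bmp7, Gdf10 and Tgfb3 each had all of their reads on 1 transcript. Among quantified genes, exons of Bmp6 share 224 bases with Txndc5 on the other strand, and those of Bmp4 share 89 bases with Gm15217. Genes without quantified transcripts overlap too. On the other strand, Gm26903 shares 1878 of the 4025 exon bases of Bmp5, Gm48008 shares 257 bases with Tgfb3, Gm37804 163 with Tgfb3, and Gm29491 124 with Tgfb2. The libraries are stranded, but the strand setting of the quantification is not given in the sources used here.

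**Figure D1:**
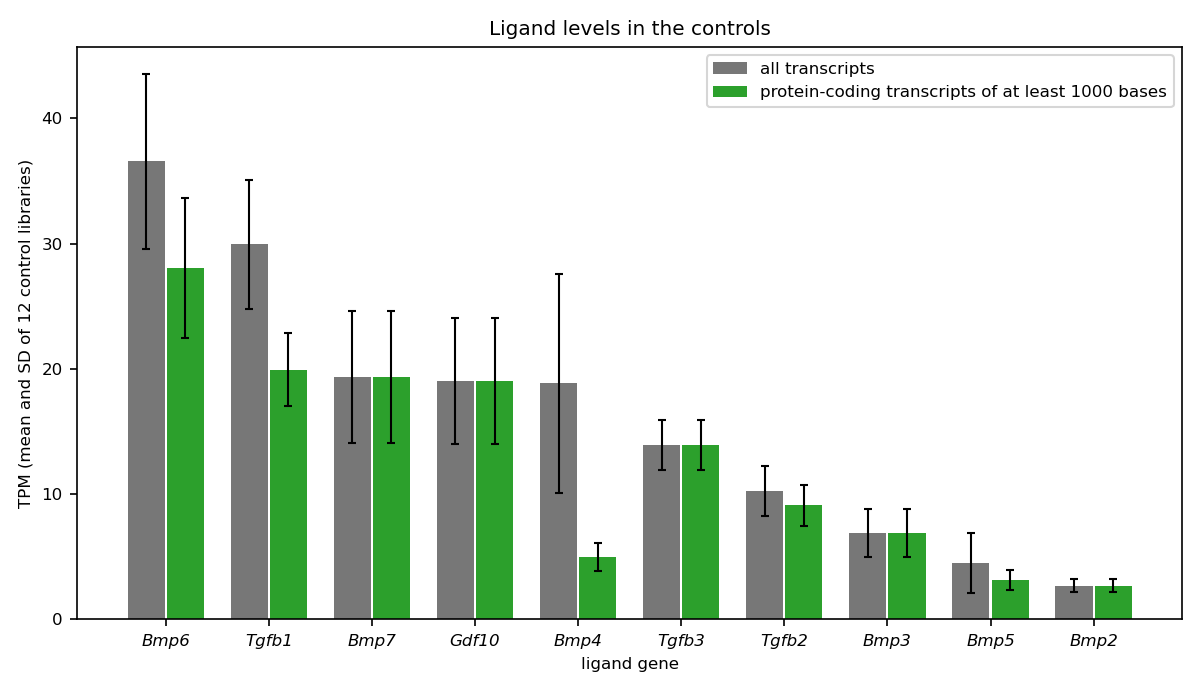
TPM of each ligand gene in the 12 control libraries, as mean and SD, over all transcripts of a gene (grey) and over protein-coding transcripts of at least 1000 bases (green). Bmp6 has the highest bar on both, and the Bmp4 bar drops from 18.8 to 4.95 TPM when short transcripts are left out.

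No ligand was called in AP-2εCre cKO VNOs, and 9 of 10 had a log2 fold change above 0. Under other settings of the fit 8 to 10 were above 0, and 7 to 10 with 1 library left out, the fewest without cKO replicate 1. At an adjusted p under 0.05, the quasi-likelihood test of edgeR called 0 of the 10 members, beside 7 of 18495 genes (0.0378%). All 10 passed the filter on low counts. DESeq2 called 316 genes and likewise 0 members. At an unadjusted p under 0.05, 1 of 10 members passed, beside 10.2% of all genes. The members' median log2 fold change was 0.20, against 0.00 over all genes, of which 50.6% were above 0. In absolute size the members had a median of 0.20 and all genes one of 0.14.

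Tgfb1 had the largest difference in this line. Its cKO values were 57.7, 72.0 and 84.8 CPM, next to 62.5, 62.9 and 34.7 CPM with flox alleles alone and 53.9, 54.9 and 53.7 CPM with Cre alone. Thus 2 cKO libraries lay above all 6 controls, and the third lay below 2 flox controls. The library at 84.8 CPM, cKO replicate 3, also had the highest sum of endothelial markers, 1521 CPM against 229 to 793 CPM in the other 8 libraries of the line. That sum was mostly Pecam1, which ran from 77.2 to 1367 CPM over the 18 libraries, while no other endothelial marker passed 68.7 CPM. Of all 18 libraries cKO replicate 3 had the highest score of macrophage and leukocyte markers. The part of these markers in the Tgfb1 value was not tested, and without cKO replicate 3 the log2 fold change was 0.28. The log2 fold change was 0.41 ± 0.18 (SE; 95% interval 0.03 to 0.80; unadjusted p = 0.0391, adjusted p = 0.457), and the two-sided exact permutation test over libraries gave p = 0.0952. Leaving out 1 library at a time moved the log2 fold change between 0.28 and 0.55.

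Tgfb3 encodes the third TGFβ isoform. Its values were 60.7, 67.4 and 70.0 CPM in cKO, 61.8, 68.1 and 38.6 CPM in flox controls, and 57.4, 54.1 and 55.6 CPM in heterozygotes. The flox control of 38.6 CPM was the same library that was lowest for Tgfb1. Bone markers summed to 928 CPM in that library, against 1366 to 1698 CPM in the others of the line, and their part was not tested. The log2 fold change of Tgfb3 was 0.24 ± 0.15 (adjusted p = 0.623). Tgfb2 differed least of the TGFβ genes, at 54.1, 54.8 and 59.8 CPM in cKO against 42.8 to 63.4 CPM in the controls (0.06 ± 0.13, adjusted p = 0.926).

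Bmp6 and Bmp7 are ligands of 1 subfamily and had similar log2 fold changes in the AP-2εCre line. Bmp7 had 91.7, 87.2 and 97.9 CPM in cKO, 87.6, 77.5 and 80.0 CPM in flox controls, and 51.0, 76.0 and 87.6 CPM in heterozygotes. Of its cKO libraries 2 were above all 6 controls, and the heterozygote at 51.0 CPM stood apart from the other 5 controls. The log2 fold change of Bmp7 was 0.27 ± 0.15 (interval -0.06 to 0.60, adjusted p = 0.579). Bmp6 had 122, 134 and 156 CPM in cKO against 88.1 to 137 CPM in the controls (0.20 ± 0.13, adjusted p = 0.659).

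For Gdf10, Bmp3 and Bmp5 a single cKO library, replicate 1, held most of the difference. It also had the highest fibroblast score of all 18 libraries. Its smooth muscle and pericyte markers summed to 2236 CPM, against 1227 to 1939 CPM in the other libraries of the line. The part of these markers in the ligand values was not tested. Gdf10 had 173 CPM in cKO replicate 1 and 118 and 117 CPM in the others, against 91.2 to 152 CPM in the controls (0.22 ± 0.17, adjusted p = 0.730). Without replicate 1 its log2 fold change was 0.01. Bmp3 had 70.8 CPM in the same library and 53.0 and 53.8 CPM in the others, against 45.4 to 58.2 CPM (0.13 ± 0.11, adjusted p = 0.761), and its log2 fold change without that library was -0.02. Bmp5, the third member of the subfamily of Bmp6 and Bmp7, had 20.9 CPM there and 15.0 and 15.8 CPM in the others, against 11.1 to 18.7 CPM (0.19 ± 0.18, adjusted p = 0.797), and 0.03 without that library. Bmp2 and Bmp4, the BMPs best known from patterning of the embryo, overlapped their controls, with log2 fold changes of 0.03 (interval -0.28 to 0.34) and -0.01 (-0.28 to 0.26). For 0 of 10 members did the 3 cKO values lie clear of the 6 control values, as they did for 5.07% of genes.

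**Figure D2:**
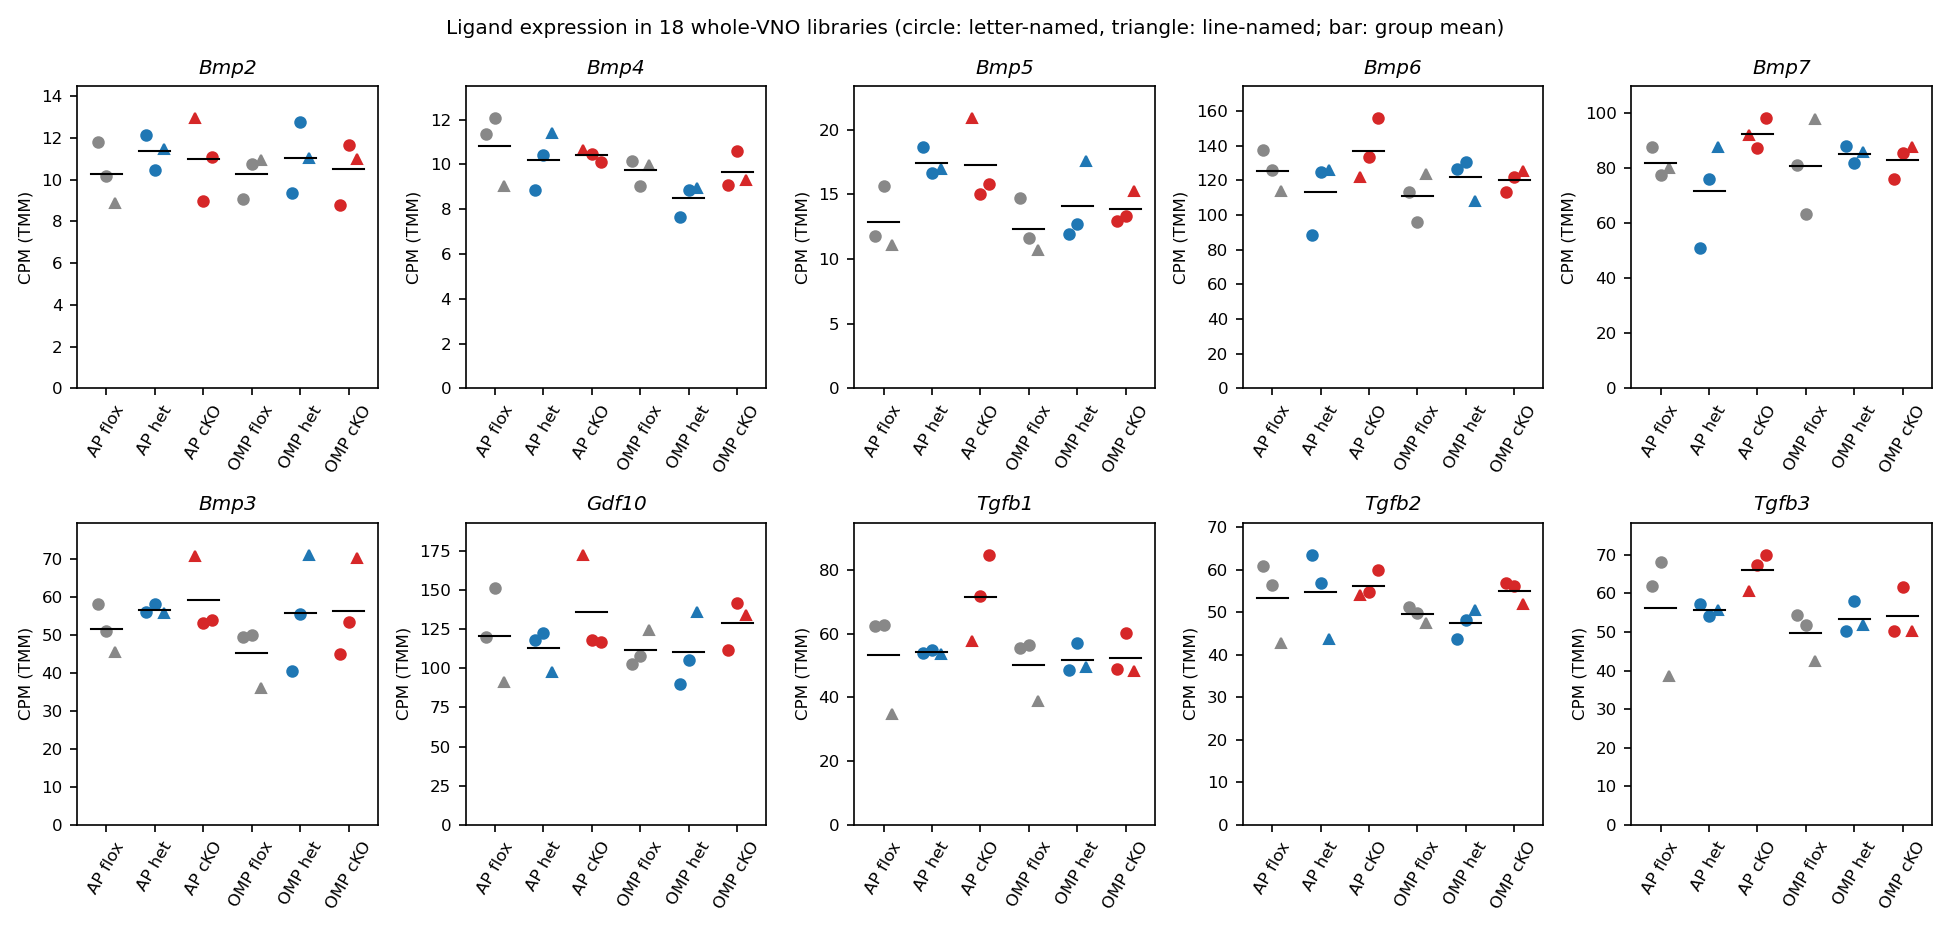
Each panel gives 1 ligand gene in CPM, with 3 libraries per group (grey flox controls, blue heterozygotes, red cKO) and a bar at the group mean. Circles and triangles mark the 2 forms of library name. Tgfb1 and Tgfb3 are lowest in the same flox library of the AP-2εCre line, at 34.7 and 38.6 CPM, and Tgfb2 has its 3 OMPCre cKO libraries above all 6 controls of that line.

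In OMPCre cKO VNOs, too, no ligand was called, and Tgfb2 was the 1 member whose groups did not overlap. The test called 0 of 18623 genes (0%) and 0 of 10 members, and DESeq2 called 46 genes and 0 members. At an unadjusted p under 0.05 stood 735 genes (3.95%), among them 1 member. Tgfb2 had 56.8, 56.2 and 52.0 CPM in cKO, 51.2, 49.7 and 47.5 CPM in flox controls, and heterozygotes at 43.7, 48.1 and 50.4 CPM. All 3 cKO libraries were above all 6 controls, the lowest by less than 1 CPM, and 2.35% of genes had such a gap in one direction or the other. Its log2 fold change was 0.18 ± 0.07 (interval 0.03 to 0.34, or 1.02-fold to 1.27-fold; unadjusted p = 0.0257, adjusted p = 1.00), and the exact permutation p was 0.012, the smallest that 3 libraries against 6 allow.

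The groups of the other members overlapped. Gdf10 had 112, 142 and 134 CPM in cKO, 103, 108 and 125 CPM in flox controls, and heterozygotes at 90.2, 105 and 136 CPM. The lowest of its cKO libraries lay below 2 controls, and its log2 fold change was 0.22 ± 0.13 (interval -0.07 to 0.51). Tgfb1, at 49.1, 60.2 and 48.4 CPM against 38.9 to 57.0 CPM, differed by 0.04 (interval -0.24 to 0.33). Bmp7 differed by less than 0.01 on the log2 scale, with 75.9, 85.2 and 87.5 CPM in cKO and 63.3 to 97.5 CPM in the controls, and its interval ran from 0.830-fold to 1.21-fold. For all 10 members the intervals lay between 0.802-fold and 1.53-fold in this line, and between 0.823-fold and 1.75-fold in the AP-2εCre line. In the OMPCre line 8 of 10 log2 fold changes were above 0 (6 to 9 under other settings, 6 to 10 with 1 library left out), with a median of 0.07, against 48.7% of all genes and a median of -0.00.

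Over both lines together, 6 cKO libraries against 12 controls, all 10 members had a log2 fold change above 0 in the edgeR fit and none was called. Under other settings 8 to 10 were above 0, since Bmp2 stood at 0.00 and was below 0 in DESeq2, with its size factors, with name form or the replicate number as a term and against heterozygotes alone, Bmp5 against heterozygotes alone, and Bmp4 against flox controls alone and with length-scaled TPM. The edgeR fit called 22 of 19465 genes (0.113%) and DESeq2 104, and 8.72% of genes but 0 of 10 members had an unadjusted p under 0.05. The members' log2 fold changes ran from 0.00 for Bmp2 to 0.23 for Tgfb1, with a median of 0.13, while 48.2% of all genes were above 0 with a median of -0.01. Tgfb1 (0.23 ± 0.12, interval -0.02 to 0.48, adjusted p = 0.629) and Gdf10 (0.22 ± 0.11, interval -0.02 to 0.45, adjusted p = 0.614) had the largest values. Every member's interval lay between 0.872-fold and 1.40-fold. The members are not independent of each other, since several varied together between libraries, and this fit shares all libraries with those of the single lines. The test of a difference in cKO effect between the lines called 0 of 10 members and 0 of 19465 genes (0%) in edgeR, with 956 genes and 0 members at an unadjusted p under 0.05, and DESeq2 called 20 genes and 0 members. The largest difference of effects was that of Tgfb1, -0.37 ± 0.23 on the log2 scale for OMPCre minus AP-2εCre (interval -0.86 to 0.12, adjusted p = 1.00).

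**Figure D3:**
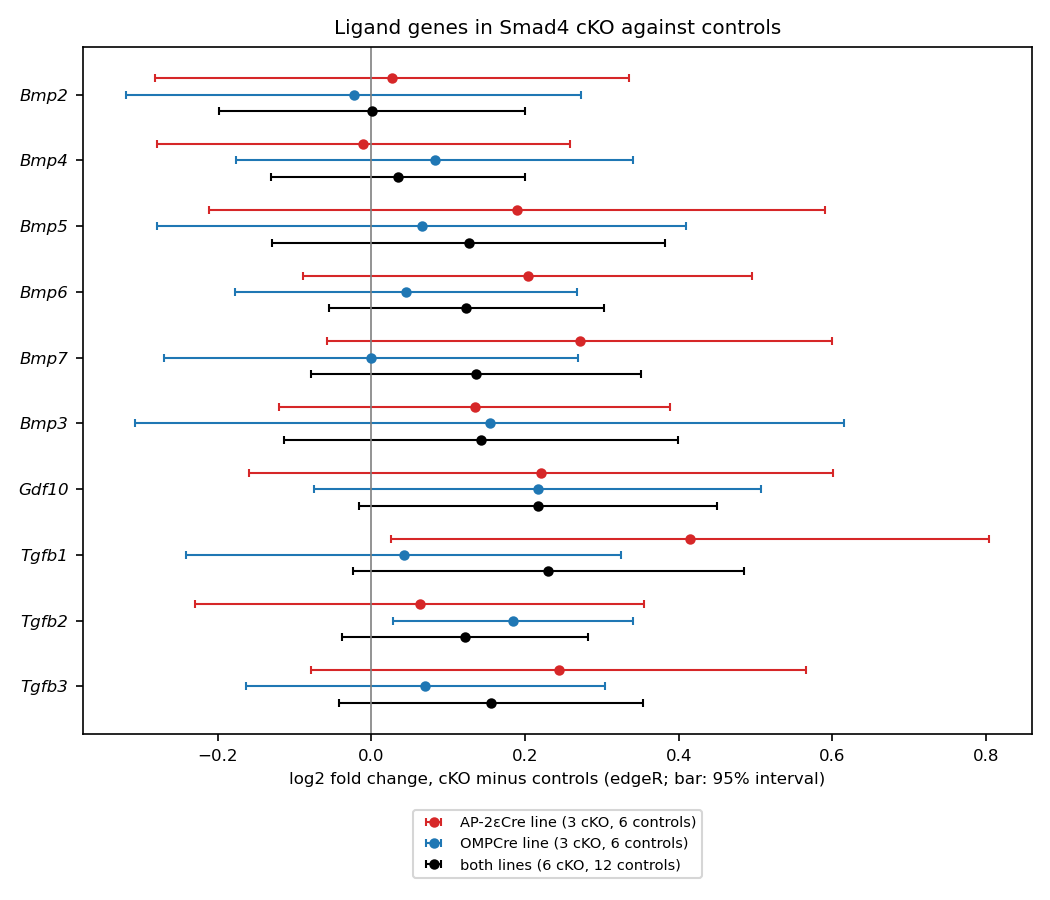
Log2 fold change of each ligand gene, cKO minus controls, with its 95% interval, in the AP-2εCre line (red), the OMPCre line (blue) and both lines together (black). The interval excludes 0 for Tgfb1 in the AP-2εCre line (0.03 to 0.80) and for Tgfb2 in the OMPCre line (0.03 to 0.34), and neither passed the adjusted threshold.

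TPM gave a different picture in the AP-2εCre line. The median gene had a TPM 1.21-fold higher in the cKO than in the control libraries (log2 0.28, 80.8% of 18495 genes above 0), and all 10 members were higher, by a median log2 difference of 0.52. Tgfb3, for one, had 18.2 to 21.9 TPM in cKO against 11.5 to 16.5 TPM in the controls, a gap that its CPM did not show. In TPM 3 of 10 members (Bmp6, Tgfb1 and Tgfb3) had all cKO above all control libraries, as had 8.85% of genes. In the OMPCre line the median gene was 0.963-fold. Differences between groups are therefore given in TMM-normalized CPM, whose median log2 fold change over all genes was 0.00 in this line and -0.00 in the OMPCre line.

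No ligand passed the threshold between the 2 kinds of control either. In the AP-2εCre line edgeR called 4 of 17827 genes (0.0224%) and 0 of 10 members, DESeq2 called 178 genes and 0 members, and 1 member had an unadjusted p under 0.05, beside 5.18% of genes. That member, Bmp5, had 18.7, 16.7 and 16.9 CPM in the heterozygotes against 11.8, 15.7 and 11.1 CPM in the flox controls. All 3 heterozygotes lay above all 3 flox controls, and the groups of 9.87% of genes did not overlap (log2 fold change 0.44 ± 0.15, interval 0.08 to 0.81, adjusted p = 0.829, exact permutation p = 0.1, the smallest possible with 3 against 3). Against the heterozygotes alone the cKO effect of Bmp5 was -0.01, and against the flox controls alone it was 0.42. In the OMPCre line edgeR called 8 of 18124 genes (0.0441%), DESeq2 called 147, and neither called a member, of which 0 had an unadjusted p under 0.05, beside 5.54% of genes. Bmp4 had 7.66, 8.86 and 8.93 CPM in the heterozygotes against 10.2, 9.05 and 9.99 CPM in the flox controls. All 3 heterozygotes lay below all 3 flox controls, and the groups of 11.6% of genes did not overlap (-0.20 ± 0.13, interval -0.51 to 0.11, adjusted p = 0.911).

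Library names come in 2 forms, a letter with a number (12 libraries) or the name of the line with a number (6, 1 in each group), and 2 of 10 members were lower in the line-named library of every group, as were 8.15% of genes. What the forms stand for is not given in the sources used here. Tgfb1 was lower in the line-named library than in the mean of the 2 letter-named ones in 6 of 6 groups, by a log2 difference of -0.34 ± 0.31 (SD over groups), and Tgfb3 in 6 of 6 by -0.24 ± 0.27. Tgfb2 was lower in 5 of 6 (-0.17 ± 0.23). The BMP genes and Gdf10 were lower in 1 to 3 of 6 groups, for example Bmp7 in 2 (0.17 ± 0.24) and Bmp6 in 3 (-0.02 ± 0.24). The AP-2εCre difference of Tgfb1 was 0.41 over 2 cKO and 4 control letter-named libraries and 0.41 over 1 and 2 line-named ones. The line-named value sets 57.7 CPM in cKO against 53.7 CPM in a heterozygote and 34.7 CPM in flox replicate 3, the lowest of the 6 controls. It therefore rests largely on that flox library. The difference of Gdf10 was -0.12 in the letter-named and 0.86 in the line-named libraries, that of Bmp3 was -0.06 and 0.49, and that of Bmp5 was -0.01 and 0.57. In the OMPCre line Tgfb2 had 0.23 and 0.08, and Gdf10 0.31 and 0.04.

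Marker lists of 19 cell types of the organ were set against the ligands, first by group. None of the 38 tests of a list in a line passed Benjamini-Hochberg adjustment (lowest adjusted p = 0.402, two-sided exact permutation test). Before adjustment the lowest exact p was 0.0119, the smallest this design allows, for apical VSN markers in the AP-2εCre line, whose sum was 1003 to 1054 CPM in cKO against 782 to 927 CPM in controls. No single list could have passed at that p over 38 tests. Markers of dividing progenitors summed to 182 to 214 CPM against 102 to 195 CPM there, with scores that did not overlap (exact permutation p = 0.0238 on the score). In the OMPCre line they summed to 77.7 to 119 CPM against 117 to 175 CPM (p = 0.0357 by exact permutation of the score). Those of ciliated respiratory epithelium summed to 267 to 424 CPM in AP-2εCre cKO against 428 to 545 CPM in controls. The ciliated scores did overlap (log2 difference -0.57, exact permutation p = 0.0476 on the score). For endothelium, the summed markers ran from 229 to 1521 CPM in the AP-2εCre cKO libraries and from 261 to 793 CPM in their controls, and Pecam1 alone ran from 77.2 to 1367 CPM over the 18 libraries. Their part in the ligand values was not tested.

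Between libraries of the same group, the ligands had their highest correlations with different marker lists. For Bmp6 and Bmp7 these were mature VSNs, for Bmp3 and Bmp5 fibroblasts, for Gdf10 and Bmp2 smooth muscle and pericytes, and for the TGFβs endothelium or bone. Each value was taken as a difference from the mean of its group on the log2(CPM + 1) scale over 18 libraries, and p came from all 46656 permutations of libraries within groups, adjusted over the 190 pairs of ligand and list. Both sides of a pair come from the same libraries and share their scaling. Of the 190 pairs, 2 passed on Pearson's r, and both calls were lost in most fits with 1 library left out.

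The first was Bmp7 with mature VSN markers (Omp, Trpc2, Calr4 and Tmem145). Pearson's r was 0.93 (permutation p = 0.000429, adjusted p = 0.0407) and Spearman's rho 0.86 (permutation p = 0.000986, adjusted p = 0.0624). The heterozygote at 51.0 CPM of Bmp7 also had the lowest sum of these markers, 447 CPM. Without the 2 libraries farthest from the median of the list r was 0.74. It was 0.98 in the AP-2εCre line, 0.86 in the OMPCre line and 0.94 over the 12 letter-named libraries. With 1 library left out at a time r stayed between 0.85 and 0.97, lowest without that heterozygote, and the pair passed in 3 of 18 cases (adjusted p from 0.0326 to 0.179, permutation test). Bmp7 had an r of 0.80 with basal VSN markers, 0.54 with apical ones and -0.71 with sustentacular cells, the supporting cells of the epithelium, none of which passed on Pearson's r. With basal VSN markers the rho of Bmp7 was 0.88 (permutation p = 0.000129, adjusted p = 0.0244), which passed on rho where mature VSNs did not. Bmp6 resembled it, with an r of 0.78 to mature VSNs (adjusted p = 0.144) and 0.70 to basal VSNs, and the r of Bmp6 with Bmp7 was 0.82.

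The second was Gdf10 with smooth muscle and pericyte markers (Acta2, Myh11, Tagln, Cnn1, Rgs5 and Kcnj8), at an r of 0.77 (permutation p = 0.000214, adjusted p = 0.0407) and a rho of 0.82 (permutation p = 0.000407, adjusted p = 0.0387). Without the 2 farthest libraries r was 0.73. It was 0.84 in the AP-2εCre line, 0.87 in the OMPCre line and 0.58 over the letter-named libraries. With 1 library left out r stayed between 0.70 and 0.84, and the pair passed in 5 of 18 cases (adjusted p from 0.0326 to 0.122, permutation test). The r of Gdf10 with fibroblasts was 0.70. Bmp3 and Bmp5 had an r of 0.77 and 0.73 with fibroblast markers (adjusted p = 0.120 and 0.161 by the same permutation test), and they varied with each other (r = 0.71) and with Gdf10 (r = 0.55 and 0.69). Line-named libraries stand alone in their groups, so no correlation within groups can be had for that form of name. Centred also by name form, on the 12 letter-named libraries that this leaves, 0 of 190 pairs passed, but the 64 permutations left give no p under 0.03125, so no single pair could have passed and the count says nothing of stability.

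**Figure D4:**
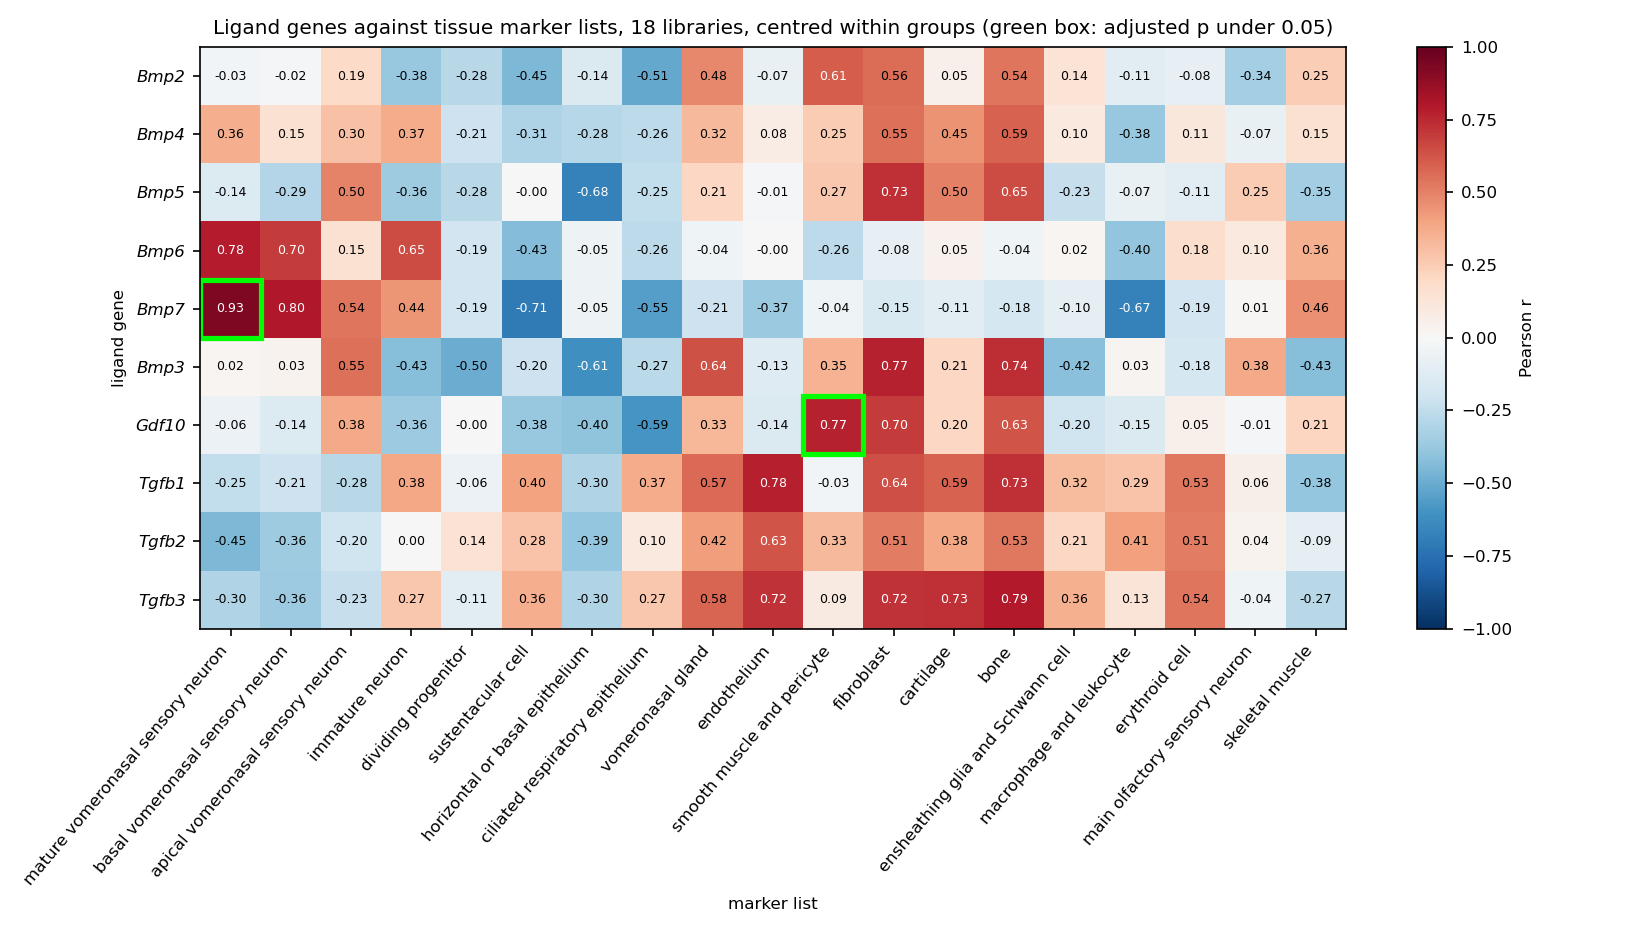
Pearson's r between each ligand gene (rows) and each of 19 marker lists (columns) over 18 libraries, both centred within groups, with the 2 pairs past an adjusted p of 0.05 boxed in green. Bmp7 with mature VSNs stands at 0.93 and Gdf10 with smooth muscle and pericytes at 0.77.

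For the TGFβ genes no list passed. Tgfb1 had an r of 0.78 with endothelial markers (permutation p = 0.00414, adjusted p = 0.129) and 0.73 with bone markers. Tgfb3 had 0.72 with endothelium (adjusted p = 0.0977, permutation test) and 0.79 with bone. Over the letter-named libraries alone the r with endothelium was 0.30 for Tgfb1 and 0.47 for Tgfb3, and that with bone 0.91 and 0.88. Tgfb2 had 0.63 with endothelium. Bmp2 reached its highest r with smooth muscle and pericytes, 0.61 (adjusted p = 0.226), and Bmp4 with bone, 0.59 (adjusted p = 0.301), both by the permutation test.

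**Figure D5:**
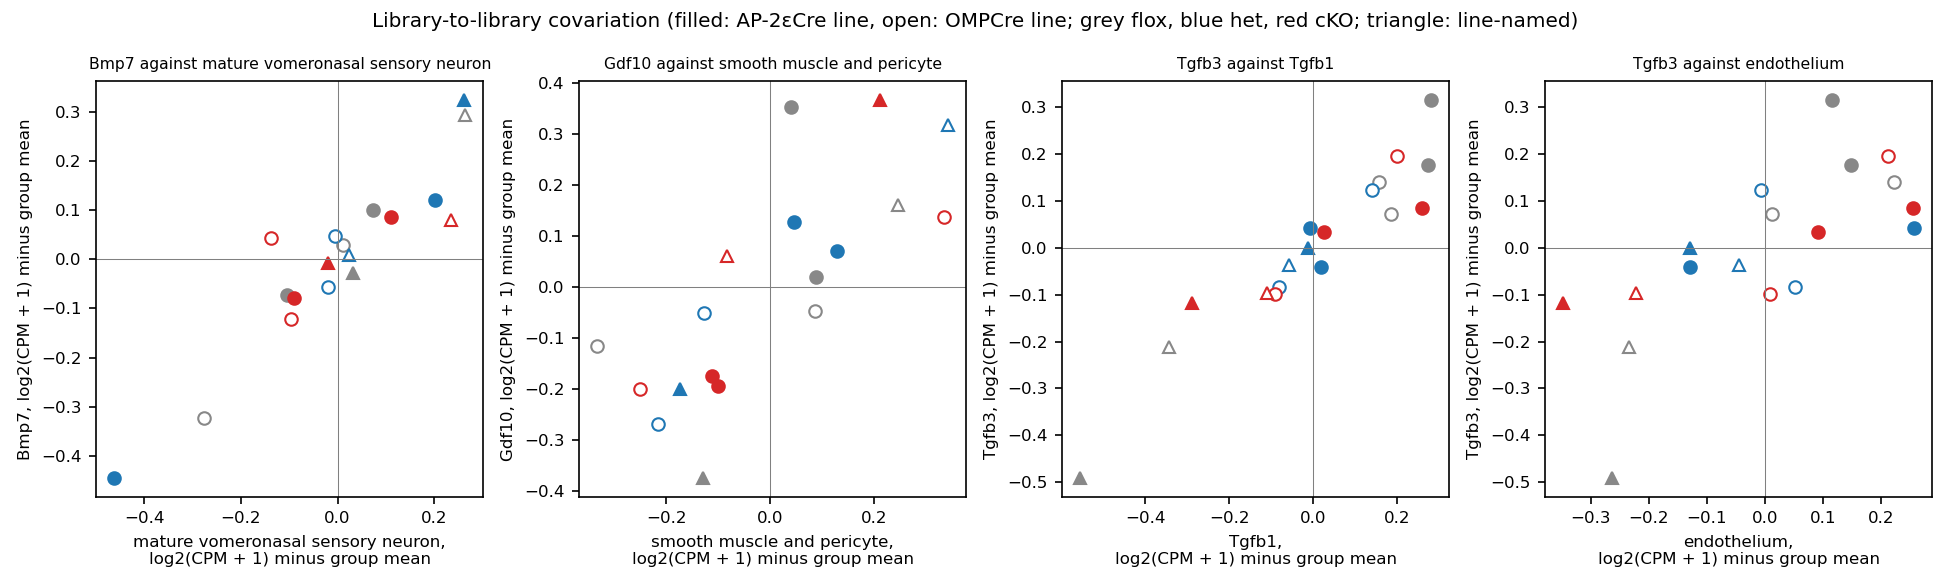
Each point is 1 of 18 libraries, both axes in log2(CPM + 1) minus the group mean: Bmp7 against mature VSN markers, Gdf10 against smooth muscle and pericyte markers, Tgfb3 against Tgfb1, and Tgfb3 against endothelial markers. Filled points are the AP-2εCre line, open ones the OMPCre line, and triangles the line-named libraries. Tgfb3 and Tgfb1 lie along 1 line (r = 0.95), and the 3 lowest points are line-named libraries.

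The genes most like each ligand were sought among 15822 genes with a mean of at least 1 CPM, by Pearson's r over the same 18 centred libraries, as a description with no test. Nearest to Tgfb1 was Tgfb3 (r = 0.95), followed by Bgn, a matrix proteoglycan (0.94), and Ilk, a kinase of integrin adhesions (0.92). Tgfb3 had Bgn (0.97), Timp2, an inhibitor of matrix metalloproteinases (0.96), and Tgfb1. For Bmp7 these were Tspyl4 (0.96), Eef1a2, an elongation factor of neurons and muscle (0.96), and Chga, a protein of secretory granules (0.96). Bmp6 went with Fetub (0.95) and Kirrel3, an adhesion molecule of VSN axons (0.94). Closest to Gdf10 were Api5 (0.95), Cybrd1 (0.94) and Chsy3, a chondroitin sulfate synthase (0.93), and to Tgfb2 Ppt1 (0.96), Copb1 (0.92) and Snap23 (0.91). Bmp3 had Ptprd (0.90), Colec12 (0.90) and Ndnf (0.88), and Bmp5 had Gm45380 (0.94), Sh3rf3 (0.89) and Tnfrsf19 (0.87). The lowest values were those of Bmp4, with Tmem140 (0.88), Scarf2 (0.85) and Mxra8 (0.83), and of Bmp2, with Cd209f (0.87), Msrb3 (0.86) and Gja4, a connexin of arterial endothelium (0.84).

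In the rest of the pathway edgeR called no gene in either line, in 6 lists of other ligands, receptors, antagonists, processing and storage factors, SMADs and targets. In the AP-2εCre line 0 of 15 other ligands tested, 0 of 13 receptors, 0 of 16 antagonists, 0 of 12 processing and storage genes, 0 of 8 SMADs and 0 of 14 targets were called, and in the OMPCre line 0 of 15, 0 of 14, 0 of 16, 0 of 12, 0 of 8 and 0 of 14 (edgeR). At an unadjusted p under 0.05 stood 2 other ligands, 2 receptors, 1 antagonist, 2 processing and storage genes and 3 targets in the first line, and 1 other ligand, 2 antagonists, 1 SMAD and 2 targets in the second, where the share over all genes was 10.2% and 3.95%. DESeq2 called 0 genes of these lists in either line and 1, the target Pmepa1, over both lines together, where edgeR called 0 (lowest adjusted p = 0.115 among the targets). Between the AP-2εCre controls it called 1 as well, the antagonist Bmper, and edgeR 0. In each list the 2 genes with the highest CPM in controls are named. Among the receptors these were Bmpr2, the type II BMP receptor, at 211 ± 26.8 CPM in AP-2εCre cKO and 212 ± 14.4 CPM in its controls, and Tgfbr2, the type II TGFβ receptor, at 187 ± 14.5 and 189 ± 14.2 CPM (SD, n = 3 and 6). Both log2 fold changes over both lines were small, 0.07 for Bmpr2 (interval -0.08 to 0.21) and -0.01 for Tgfbr2 (-0.15 to 0.12). Of the secreted antagonists, Fstl1, a follistatin-like protein, had 403 ± 42.2 CPM in AP-2εCre cKO and 331 ± 41.6 CPM in controls (0.29 ± 0.12, adjusted p = 0.454), and Twsg1, which binds BMPs and chordin, had 196 ± 20.1 and 197 ± 8.49 CPM.

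Of the other ligands, Gdf11 had 22.1 ± 2.11 CPM against 18.8 ± 1.69 CPM in the AP-2εCre line (0.24 ± 0.10, adjusted p = 0.447), and Inhbb, a subunit of activin B, had 8.68 ± 1.88 CPM against 11.8 ± 1.93 CPM (-0.44 ± 0.18, adjusted p = 0.441). Furin, the protease that cleaves ligand precursors, had 172 ± 6.09 and 171 ± 20.5 CPM, and Thbs1, which can activate latent TGFβ, 172 ± 30.5 and 157 ± 45.8 CPM. Smad5 had 73.9 ± 3.91 and 76.5 ± 7.27 CPM, and with Smad4 was the most abundant of its list. Ccn2, a TGFβ target of connective tissue, had 235 ± 73.0 CPM in AP-2εCre cKO against 146 ± 35.3 CPM in controls, the largest difference among these named genes (0.69 ± 0.23, interval 0.17 to 1.20, adjusted p = 0.360), and 145 ± 51.9 against 132 ± 64.5 CPM in the OMPCre line (0.13 ± 0.36, adjusted p = 1.00). Ski, a repressor of SMAD transcription and itself a pathway target, differed by 0.20 ± 0.09 in the AP-2εCre line and 0.10 ± 0.08 in the OMPCre line (adjusted p = 0.496 and 1.00).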

How the data were processed

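Per the labels and the study's methods, polyA+ RNA of dissected VNOs was made into stranded libraries and read as single reads. The authors quantified reads with Salmon 0.14.0 against mouse transcripts (mm10, GRCm38). The deposited files give an estimated count, which need not be whole and is not normalized, and a TPM per transcript. Here the estimated counts of 116072 of 116248 transcripts were summed per gene with GENCODE vM21 and rounded. The study's methods name an assembly of coding sequences for the quantification, whereas the lengths in the files equal those of whole GENCODE transcripts, so these disagree. edgeR 4.0.16 (R 4.3.3; TMM, filterByExpr, quasi-likelihood test) was run on all genes, with two-sided p-values adjusted by Benjamini-Hochberg and called under 0.05. Exact permutation tests used log2(CPM + 1). Marker scores are means of log2(CPM + 1) over a list. The labels call replicates biological, without naming animals or litters, and p-values measure the spread between these libraries. Libraries of a group differed beyond sampling noise in all 18 pairs.

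The members and lists were chosen with earlier results of these data known. Named are the members, Smad4, Tfap2e and Omp, any called gene of a pathway list and the 2 with the highest mean CPM in controls, the 2 lists with the largest r past the threshold, and the 3 genes most like each member, of which 1 for Bmp6 is not reported here. Alternatives were DESeq2 1.42.0, its size factors in edgeR, a minimum of 1 count in total, length-scaled TPM, name form or replicate number as a term, each kind of control alone, 1 fit over 18 libraries, a pseudocount of 0.1, uncentred values (100000 permutations), and each library left out. The fits were tested on simulated data. Python 3.11.15, numpy, pandas and matplotlib made the tables and figures.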

Additional observations from a re-analysis of the deposited data

Results flagged for a closer look

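In 20 tests for a library far from the others (10 ligands, the 6 pooled controls of each line), 2 values stood out by Dixon's criterion, where chance flags about 1 in 20. Bmp7 in the AP-2εCre controls had its lowest value, 51.0 CPM, in heterozygous replicate 1, at a gap of 0.684 of the range of the 6 controls. Tgfb1 in the same controls had its lowest value, 34.7 CPM, in flox replicate 3, at a gap of 0.674 of the range. The test of a difference in cKO effect between the lines called 0 of 10 ligands.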

How the results depend on the processing

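The count of ligands called stayed at 0 in each comparison under every alternative. Marker lists called also numbered 0, but with a smallest exact p of 0.012 and 38 tests no single list could pass. Genes called did depend on the fit. In the AP-2εCre line (7) they numbered 316 in DESeq2, 4 with length-scaled TPM, 2 with name form as a term, 24 against flox controls alone, 16 with all 18 libraries in 1 fit, and 2 to 8 with 1 library left out. In the OMPCre line (0) they numbered 46 in DESeq2, 1 with name form, 11 against heterozygotes alone, 15 in 1 fit, and 0 to 2 with a library left out. Over both lines (22) these were 104 in DESeq2, 7 with length-scaled TPM, 35 with name form, 11 and 46 against flox or heterozygous controls alone, and 10 to 33 with a library left out. For the difference between lines (0) they were 20 in DESeq2, 1 and 8 against flox or heterozygous controls alone, and 0 to 1. Between the kinds of control, AP-2εCre (4) gave 178 in DESeq2, 8 with a minimum of 1 count, 2 with name form, 33 in 1 fit and 3 to 28, and OMPCre (8) gave 147 in DESeq2, 3 with length-scaled TPM and 0 to 15. The replicate block gave 2 genes in the AP-2εCre line, 0 in the OMPCre line, 21 over both lines and 2 between the OMPCre controls. Correlations of same-numbered samples ran from -0.308 to 0.192 in the AP-2εCre line (mean -0.0826), against -0.23 to 0.274 for other pairs (mean 0.0419). In the OMPCre line they ran from 0.0218 to 0.523 (mean 0.238), against -0.412 to 0.226 (mean -0.116), so same-numbered samples were more alike there. The main fits did not pair samples by number. With the block, 1018 OMPCre genes had an unadjusted p under 0.05 in edgeR, beside 735 without it. The block changed no ligand's call. Ligand and marker pairs called (2) came to 1 with log2(CPM + 0.1), 14 uncentred, 0 centred within group and name form (64 permutations, smallest p 0.03125, so no single pair could pass), and 0 to 3 with a library left out. Log2 fold changes near 0 changed sign. Length-scaled TPM gave Bmp4 0.13, -0.87 and -0.34 (AP-2εCre, OMPCre, both) and, in OMPCre, Bmp5 -0.13 and Bmp7 0.0194. Heterozygotes alone gave Bmp2 -0.0400, Bmp4 0.0336 and Bmp5 -0.0113 in AP-2εCre, Bmp5 -0.0210 and Bmp6 -0.0165 in OMPCre, and Bmp2 -0.0533 and Bmp5 -0.0135 over both. Flox controls alone gave Bmp2 0.0294, Bmp4 -0.0162 and Bmp7 0.0376 in OMPCre, and Bmp4 -0.0346 over both. Bmp7 in OMPCre was 0.00117 with a minimum of 1 count, 0.00355 with name form, 0.00801 with the block and 0.00135 in 1 fit, and Bmp2 over both lines -0.00412 in DESeq2, -0.00277 with its size factors, -0.00187 with name form and -0.00515 with the block. With a library left out, AP-2εCre values ran from -0.11 to 0.15 for Bmp2, -0.0166 to 0.21 for Bmp3 and -0.0564 to 0.0332 for Bmp4. OMPCre values ran from -0.11 to 0.0835 for Bmp2, -0.0379 to 0.29 for Bmp3, -0.00920 to 0.165 for Bmp5, -0.00504 to 0.0794 for Bmp6, -0.0665 to 0.0534 for Bmp7, -0.0653 to 0.0974 for Tgfb1 and -0.0357 to 0.12 for Tgfb3. Over both lines they ran from -0.0592 to 0.0532 for Bmp2 and -0.00311 to 0.0602 for Bmp4. AP-2εCre cKO replicate 1 turned Bmp2 and Bmp3, and OMPCre cKO replicates 2 and 3 turned Tgfb1 and Tgfb3, and Bmp3 and Bmp5. The causes were not tested. With 3 cKO libraries a line, the intervals leave room for changes of up to 1.75-fold, and a change confined to few cells of the organ could be missed.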

Other observations

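The AP-2εCre library whose labels disagree on its genotype (heterozygous in the title, cKO in the genotype field) held 49415894 estimated counts and was of the line-named form. Smad4 had 87.6 CPM in it, above the 39.6 to 81.0 CPM of the 6 controls of the line. Tfap2e had 6.83 CPM, within the 5.44 to 8.88 CPM of the heterozygotes and below the 10.0 to 12.5 CPM of the cKO libraries and the 14.0 to 16.6 CPM of the flox controls. Bmp4 had 7.93 CPM, below the 8.84 to 12.1 CPM of the controls, and the other 9 ligands lay within the range of their controls, for example Bmp7 at 78.9 CPM, Gdf10 at 122 CPM and Tgfb1 at 49.8 CPM. Bmp3, Bmp4, Bmp6, Bmp7 and the 3 TGFβ genes lay below all 3 cKO libraries of the line. Bmp7 stood against 87.2 to 97.9 CPM and Tgfb1 against 57.7 to 84.8 CPM, while Bmp3, at 52.4 CPM, lay just under the lowest cKO value of 53.0 CPM. Bmp2, Bmp5 and Gdf10 lay within the cKO range. The share of all genes outside these ranges was not determined and several ligands varied together, so nothing particular to the ligands follows. None of the values of this library was used to assign it to a group.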
